A study of Homo sapiens with 43 samples.

Results

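The RNA contacts of DGCR8 were compared between a tagged and an untagged state of HEK293T cells, a human embryonic kidney line, by eCLIP (enhanced crosslinking and immunoprecipitation). In DGCR8 FLAG, cells carried a FLAG tag in the endogenous gene and complexes were recovered with a FLAG antibody from Sigma. In DGCR8 wild type, unmodified cells were used with a DGCR8 antibody from Bethyl. Both cell states were crosslinked with ultraviolet light while attached to the plate, and the RNA was trimmed with RNase I. In each case a gel region spanning 75 kDa above the protein was taken, and each library was normalised by the authors to an input of its own. The sources used here do not give the end of the protein that carries the tag or whether the tagged line is 1 clone. All rows of both peak lists were taken and compared on the same strand. They held 25723 peaks in DGCR8 FLAG and 33029 in DGCR8 wild type, together 58752 of the 1430241 peaks in the 25 lists of the series. Each state had 1 library, so no difference between them has a replicate check and none carries a p-value.

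DGCR8 is the double-stranded RNA-binding partner of the nuclease DROSHA. Together they form the Microprocessor, which recognises hairpins folded within primary microRNA transcripts in the nucleus and cuts near their base. The released hairpin is exported by exportin 5 (XPO5) and cut again by DICER1, which leaves a microRNA duplex from the 5p and 3p arms. The Microprocessor also cuts hairpins in the messenger RNA of DGCR8 itself, a known feedback on its own level.

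The single most enriched peak of each list lay at the primary transcript of the miR-17-92 cluster, a polycistron of 6 hairpins on chromosome 13. The mature strands below are grouped by shared seed, since several families have members at loci enriched in both libraries. Sequences are those of RefSeq with GRCh38.p14, 5′ to 3′, and capitals mark the seed, bases 2 to 8, which pairs with target messenger RNAs.
hsa-miR-17-5p: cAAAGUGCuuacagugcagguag
hsa-miR-20a-5p: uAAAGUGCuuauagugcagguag
hsa-miR-106b-5p: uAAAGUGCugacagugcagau
hsa-miR-18a-5p: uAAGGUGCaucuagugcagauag
hsa-miR-19a-3p: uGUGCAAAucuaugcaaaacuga
hsa-miR-19b-3p: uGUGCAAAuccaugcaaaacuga
hsa-miR-92a-3p: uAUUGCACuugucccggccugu
hsa-miR-25-3p: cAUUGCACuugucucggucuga
hsa-miR-221-3p: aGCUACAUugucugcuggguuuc
hsa-miR-222-3p: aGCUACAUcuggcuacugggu
hsa-miR-103a-3p: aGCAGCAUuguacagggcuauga
hsa-let-7i-5p: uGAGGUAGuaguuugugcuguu

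DGCR8 meets these sequences before they are cut out, so 4 precursor hairpins are shown whole, with the mature strands in capitals. They are the hairpins whose peak positions are described below.
MIR92A1: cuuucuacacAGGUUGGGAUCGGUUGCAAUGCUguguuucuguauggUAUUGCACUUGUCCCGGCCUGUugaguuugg
MIR19B1: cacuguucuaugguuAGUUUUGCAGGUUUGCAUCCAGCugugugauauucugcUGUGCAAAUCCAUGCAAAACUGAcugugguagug
MIR17: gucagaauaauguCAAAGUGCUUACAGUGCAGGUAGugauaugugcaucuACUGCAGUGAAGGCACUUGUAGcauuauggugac
MIR106B: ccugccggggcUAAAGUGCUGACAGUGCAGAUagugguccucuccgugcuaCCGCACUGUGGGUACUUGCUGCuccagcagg

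Peaks were called significant when the authors' log2 fold over input was 3 or more, an 8-fold enrichment, and their −log10 p was also 3 or more. This held for 457 peaks in DGCR8 FLAG, 1.78% of its list, and for 1375 peaks in DGCR8 wild type, 4.16% of its list. The 95% Wilson intervals ran from 1.62% to 1.95% in FLAG and from 3.95% to 4.38% in wild type, and did not overlap. Here and below such intervals cover counting error over peaks only. The most enriched peak reached a log2 fold of 8.81 in FLAG and 11.74 in wild type, and the median significant peak 3.997 in FLAG and 4.33 in wild type. A log2 fold of 5 or more was reached by 110 significant peaks in FLAG and by 476 in wild type. Significant peaks had a median width of 44 nt in FLAG and 42 nt in wild type. Read totals were not used, so the depth behind a peak is unknown. If the commonest fold stood for 3 reads over 1 input read, an unchecked assumption, the input would be 1.68 log2 units deeper than the immunoprecipitation in FLAG and 1.33 in wild type, and an 8-fold peak would need 3 reads in FLAG and 4 in wild type. Those read numbers are for the fold alone. The threshold for −log10 p can ask for more: the FLAG peak on MIR196A2, with a log2 fold of 4.26, missed it. The part of depth in the differences between these lists was not tested.

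Strongly enriched sites were found in both libraries far more often than weakly enriched ones. Of the 457 significant FLAG peaks, 211 overlapped a significant wild-type peak by at least 1 nt, 46.2% (95% Wilson interval 41.7% to 50.8%). Of the 1375 significant wild-type peaks, 260 overlapped a significant FLAG peak, 18.9% (16.9% to 21.1%). Peaks below the threshold did so in 0.625% of cases in FLAG and 0.199% in wild type. Among FLAG peaks the share was 26.4% of 235 with a log2 fold of 3 to 4, 61.6% of 112 with 4 to 5, 70.3% of 64 with 5 to 6 and 76.1% of 46 with 6 or more. Among wild-type peaks the share in the same classes was 3.42% of 468, 6.96% of 431, 28.3% of 226 and 150 of the 250 peaks with 6 or more. In FLAG the step was between the lowest class and the rest, whereas in wild type the share was low up to a log2 fold of 5. By width, 47.5% of FLAG peaks of 20 nt or less, 44.1% of those of 21 to 50 nt and 48.1% of wider ones were shared. When the wild-type list was cut to its 457 peaks of highest fold, 37.0% of FLAG peaks and 46.4% of the wild-type peaks kept were shared.

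**Figure D1:**
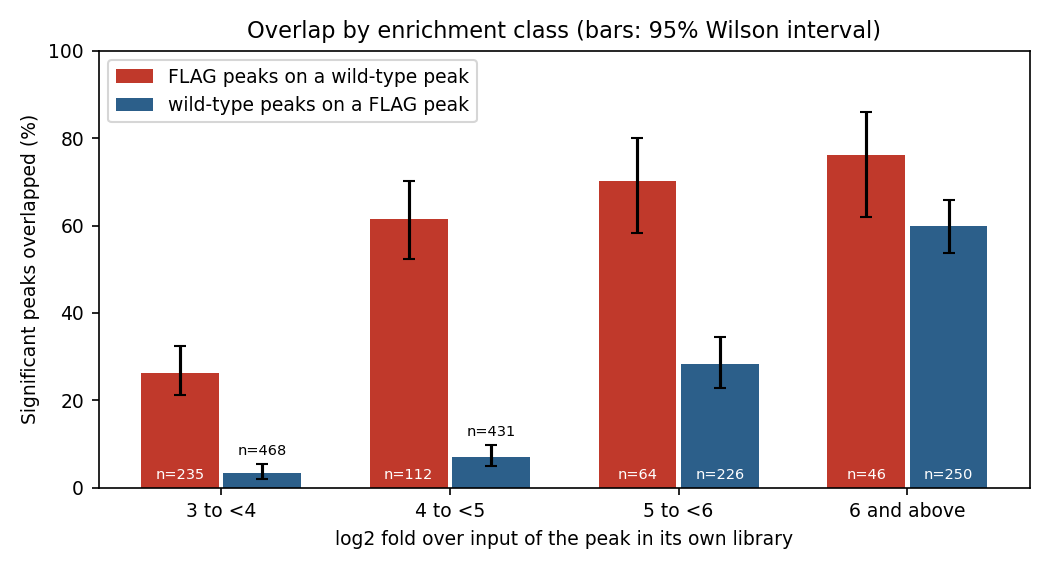
Share of significant peaks that overlap a significant peak of the other library (vertical axis, %), by the peak's own log2 fold over input (horizontal axis), for DGCR8 FLAG peaks (red, left bars) and DGCR8 wild-type peaks (blue, right bars); error bars are 95% Wilson intervals and n is the number of peaks. FLAG shares go from 26.4% in the lowest class to 76.1% in the highest, and wild-type shares from 3.42% to 150 of 250 peaks.

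Sites significant in only 1 library were mostly not called at all in the other. Of the 457 FLAG peaks, 180 lay on no wild-type peak of any strength, 216 on a wild-type peak with a log2 fold of 3 or more, 56 on one of 0 to 3 and 5 on one at or below 0. Of the 1375 wild-type peaks, 952 lay on no FLAG peak, 292 on a FLAG peak with a log2 fold of 3 or more, 130 on one of 0 to 3 and 1 on one at or below 0. A log2 fold at or below 0 in the other library was thus recorded for 5 FLAG sites and 1 wild-type site. No peak with a negative fold in either list had a −log10 p above 0, so these counts do not measure depletion.

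Where both libraries were enriched, the FLAG peak was usually the weaker. At the 211 overlapping FLAG peaks the median log2 fold was 4.68 in FLAG and 6.29 in the strongest wild-type partner. The median difference, FLAG minus wild type, was −1.65, with an interval for the median of −1.90 to −1.46 and quartiles of −2.41 and −0.50. FLAG was lower at 178 sites, 84.4%, and higher at 33. Taking the strongest of several wild-type partners can push this difference below 0, and the reverse pairing was not made. Across these sites the folds had a Pearson r of 0.52 and a Spearman rho of 0.47; neighbouring peaks share a transcript, so the sites are not independent.

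Joining significant peaks of either library that lay within 200 nt on the same strand gave 1028 loci. Of these, 99 were significant in both libraries, 188 in FLAG only and 741 in wild type only. The 99 shared loci held 262 FLAG peaks, 57.3% of that list, and 477 wild-type peaks, 34.7% of its list. They were longer than the others, with a median of 279 nt against 48.5 nt for FLAG-only and 45 nt for wild-type-only loci. The strongest peak of a shared locus had a median log2 fold of 4.85 in FLAG and 6.21 in wild type. FLAG was lower at 80 of the 99 and higher at 19, with a median difference of −1.57 and, across loci, a Pearson r of 0.59 and a Spearman rho of 0.55. Loci of the other classes were mostly single peaks, 182 of 188 for FLAG only and 650 of 741 for wild type only.

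**Figure D2:**
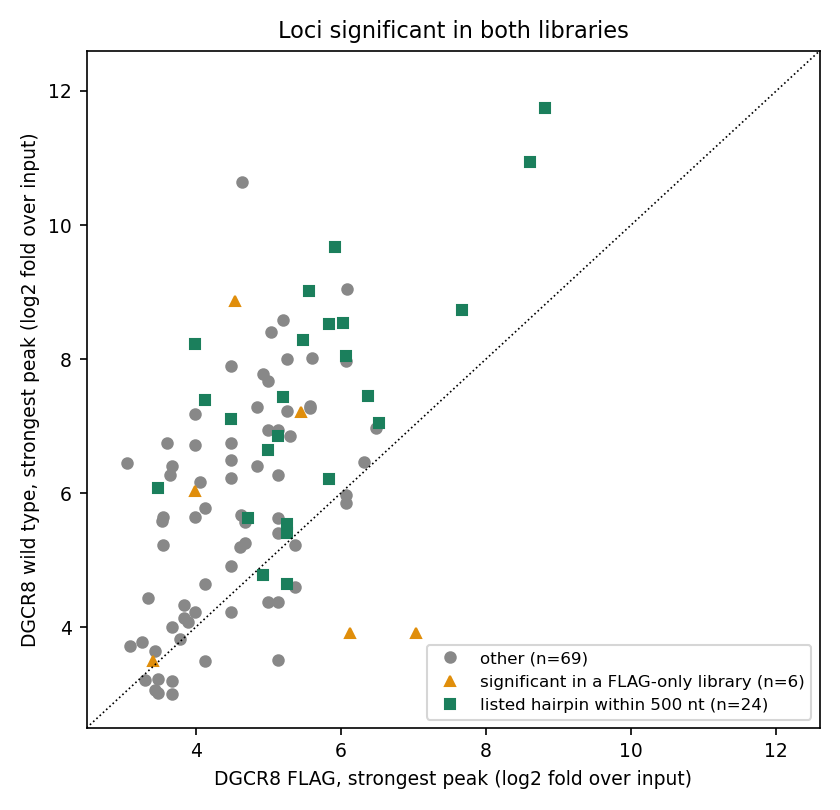
Strongest peak of each of the 99 shared loci in DGCR8 FLAG (horizontal axis) and DGCR8 wild type (vertical axis), both as log2 fold over input; the dotted line marks equal values. Of these loci, 80 lie above the line, and the 2 triangles far below it are sites that FLAG-only libraries also hold.

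The 10 shared loci with the highest mean of both strongest folds all lay at microRNA hairpins. No hg19 annotation was given, so hg19 places of hairpins and genes were recalled from general knowledge and not read from a file. They were checked for length, chromosome and, for hairpins, strand against RefSeq. The places of miR-186, miR-503 and miR-424 were added after the loci had been seen. The first was chr13:92002580-92004774 on the + strand, the miR-17-92 cluster, with 30 significant peaks in each library and a strongest log2 fold of 8.81 in FLAG and 11.74 in wild type. The second was chrX:45605608-45606571 on the − strand, which holds miR-221 and miR-222, which share a seed, with 8.61 in FLAG and 10.95 in wild type. A significant peak of 1 FLAG-only library also lay in it. The third was chr20:3897894-3898211 on the + strand, at miR-103a-2 in an intron of the pantothenate kinase gene PANK2, with 7.68 in FLAG and 8.73 in wild type. In these 3 loci FLAG reached its own highest folds, and wild type was higher in each.

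The next loci showed wider gaps. At chr7:99691103-99691740 on the − strand, the miR-106b-25 cluster inside the replication gene MCM7, FLAG had 7 peaks up to a log2 fold of 5.92 and wild type 15 peaks up to 9.68. At chr1:71533324-71533413 on the − strand, at miR-186, FLAG had 3 peaks up to 4.64 and wild type 4 up to 10.65, the widest gap of the 10. At chrX:133680362-133680546 on the − strand, at miR-503, FLAG had 2 peaks up to 6.08 and wild type 4 up to 9.04. All of these peaks lay on the miR-503 hairpin, and the nearby miR-424 hairpin held no significant peak in either library.

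The last 4 of the 10 had FLAG folds between 5.56 and 6.07. At chr12:62997352-62997547 on the + strand, let-7i, the strongest peak had 5.56 in FLAG and 9.01 in wild type. At chr3:49057192-49058810 on the − strand, miR-425 and miR-191, it had 6.03 in FLAG and 8.53 in wild type, with 5 FLAG and 17 wild-type peaks. At chr13:50623120-50623297 on the − strand, miR-16-1 and miR-15a, it had 5.85 in FLAG and 8.53 in wild type. At chr5:167987805-167988035 on the − strand, miR-103a-1, which yields the same mature strand as miR-103a-2, it had 6.07 in FLAG and 8.04 in wild type. FLAG was lower than wild type at all 10 loci.

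Among 58 listed hairpins that could be placed, 23 held a significant peak inside the hairpin in both libraries, 17 in wild type only, 0 in FLAG only and 18 in neither. Inside here means an overlap of at least 1 nt. The hairpins therefore numbered 23 with a FLAG peak and 40 with a wild-type peak. Their peaks made up 8.53% of significant FLAG peaks (6.31% to 11.5%) and 5.75% of significant wild-type peaks (4.63% to 7.10%), intervals that overlap. In the other 23 libraries of the series, 0 to 5 of the 58 hairpins held a significant peak, with a median of 1 and at most 0.783% of a library's significant peaks. Both DGCR8 lists lay above that range in the number of hairpins and in their share of peaks. The hairpins were listed with earlier results of these data known, which could favour those with DGCR8 peaks. Almost any peak called on a hairpin was significant, 39 of 44 in FLAG and 79 of 86 in wild type. On the 17 hairpins with a significant wild-type peak alone, FLAG had a called peak of any strength on 3 and none on 14. Over all 58, no FLAG peak was called on 32 hairpins and no wild-type peak on 14.

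Over the 23 hairpins enriched in both, the strongest peak had a median log2 fold of 5.85 in FLAG and 8.22 in wild type, and the median difference was −2.34. FLAG was lower at 22 of 23. The exception was MIR18A, with 7.42 in FLAG and 7.01 in wild type. The gap was narrow at MIR19A, with 7.28 in FLAG and 7.29 in wild type, and at MIR10A, with 5.85 in FLAG and 6.03 in wild type. It was wide at MIR106B, with 5.10 in FLAG and 9.68 in wild type, at MIR196B, with 3.997 in FLAG and 8.22 in wild type, and at MIR25, with 5.38 in FLAG and 8.94 in wild type. The recalled places of miR-221 and miR-222 did not have the spacing of RefSeq, so their 2 values, drawn in the plot of listed hairpins, may belong to bases beside the hairpin.

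**Figure D3:**
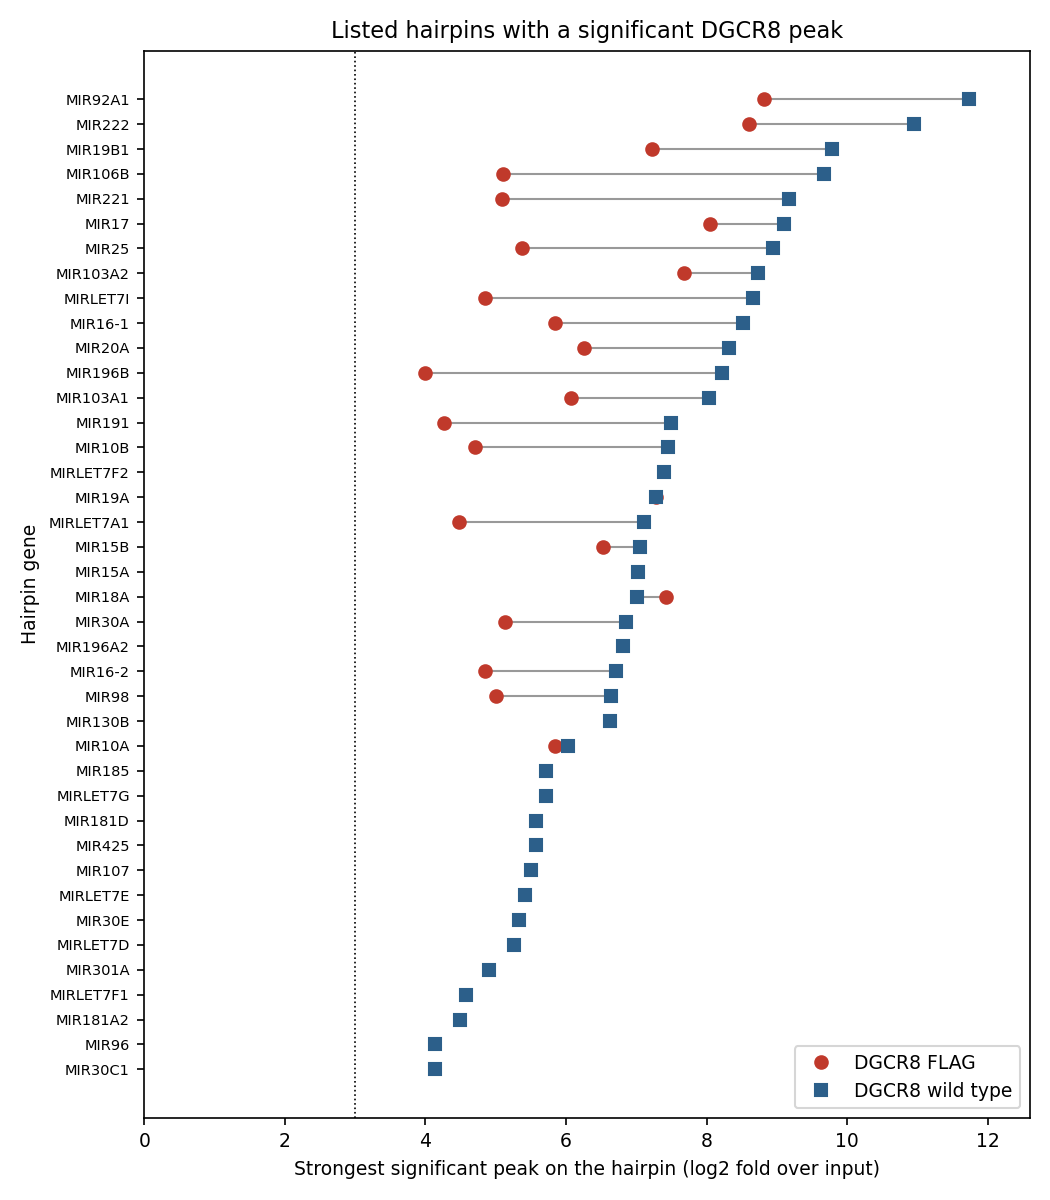
Strongest significant peak (horizontal axis, log2 fold over input) on each of the 40 listed hairpins with a significant peak in either library, in DGCR8 FLAG (red circles) and DGCR8 wild type (blue squares); grey lines join the values of 1 hairpin and the dotted line marks the threshold of 3. The red circle lies left of the blue square at 22 of the 23 hairpins that have both, and the other 17 have a blue square alone.

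The families differed in how many members were enriched. In the miR-17-92 cluster all 6 hairpins were significant in both libraries, and in the miR-106b-25 cluster both placed hairpins were. In the third paralog cluster, miR-106a-363, 0 of 5 placed hairpins were significant in either library. Of 12 let-7 family hairpins, whose mature strands share the seed shown for let-7i, 3 were significant in both libraries (MIRLET7A1, MIR98 and MIRLET7I), 5 in wild type only and 4 in neither. MIRLET7A1 had 4.48 in FLAG and 7.11 in wild type, MIR98 5.00 in FLAG and 6.65 in wild type, and MIRLET7I 4.85 in FLAG and 8.67 in wild type. The 5 with a wild-type peak alone ranged from 4.57 at MIRLET7F1 to 7.39 at MIRLET7F2. Of 33 other listed hairpins, 12 were significant in both, 12 in wild type only and 9 in neither.

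Peaks beside the hairpins brought the libraries closer. With 500 nt on either side included, 32 of the 58 hairpins had a significant FLAG peak and 44 a significant wild-type peak. MIR425 and MIR130B are examples, with no FLAG peak inside the hairpin. Beside MIR425 the strongest peak had 6.03 in FLAG against 7.57 in wild type. Beside MIR130B it had 5.20 in FLAG against 6.73 in wild type. For 18 hairpins with significant peaks both inside and beside the hairpin in both libraries, the strongest inside peak exceeded the strongest flanking peak by a median of 0.10 log2 units in FLAG and 0.64 in wild type, and by more in wild type at 13 of 18. In the 6 hairpins of the miR-17-92 cluster the medians were 0.05 in FLAG and 1.47 in wild type, and wild type had the larger excess at 5. A peak counted as inside if it touched the hairpin, and the strongest FLAG peak at MIR17 began 42 nt before it. In the other 12 the medians were 0.46 in FLAG and 0.47 in wild type, and wild type had the larger excess at 8. The gap between the medians was thus not seen without the cluster, whereas the count still leaned to wild type. Hairpins of the same cluster share flanking peaks, so these differences are not independent. MIR222, whose recalled place is in doubt, is among the other 12.

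Within the miR-17-92 transcript the libraries were enriched over largely the same stretch but with their maxima differently spread. At the 3′ end FLAG peaks reached chr13:92004774 and wild-type peaks chr13:92004459. FLAG had 30 significant peaks there, 6.56% of its list, and wild type had 33, 2.40% of its list, of which 3 lay further 5′ than the joined locus. Of the FLAG peaks, 14 touched a hairpin, with a median log2 fold of 7.13, and 14 lay after the last hairpin, with a median of 6.23. Of the wild-type peaks, 19 touched a hairpin, with a median of 8.80, and 8 lay after the last hairpin, with a median of 6.38. On the hairpins the medians were 1.67 log2 units apart, wild type being higher. After the last hairpin the strongest peak had 7.59 in FLAG against 7.58 in wild type. Of 6 FLAG peaks there that overlapped a wild-type peak, FLAG was higher at 3 and lower at 3, with a median difference of −0.06. The medians are over peaks called separately in each library.

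The 6 hairpins are given in transcript order. The strongest peak had a log2 fold of 8.06 in FLAG and 9.11 in wild type at MIR17, 7.42 in FLAG and 7.01 in wild type at MIR18A, and 7.28 in FLAG and 7.29 in wild type at MIR19A. It had 6.26 in FLAG and 8.33 in wild type at MIR20A, 7.23 in FLAG and 9.78 in wild type at MIR19B1, and 8.81 in FLAG and 11.74 in wild type at MIR92A1. In wild type the last hairpin, which yields miR-92a, stood 1.96 log2 units above the next, MIR19B1. In FLAG it stood 0.76 above the next, MIR17. That FLAG peak at MIR17 began 42 nt before the hairpin and ended at its base 10. The FLAG peak wholly inside MIR17 had 7.10. The wild-type peak that overlapped the FLAG peak of 8.06 had 6.87 and ended before the hairpin.

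**Figure D4:**
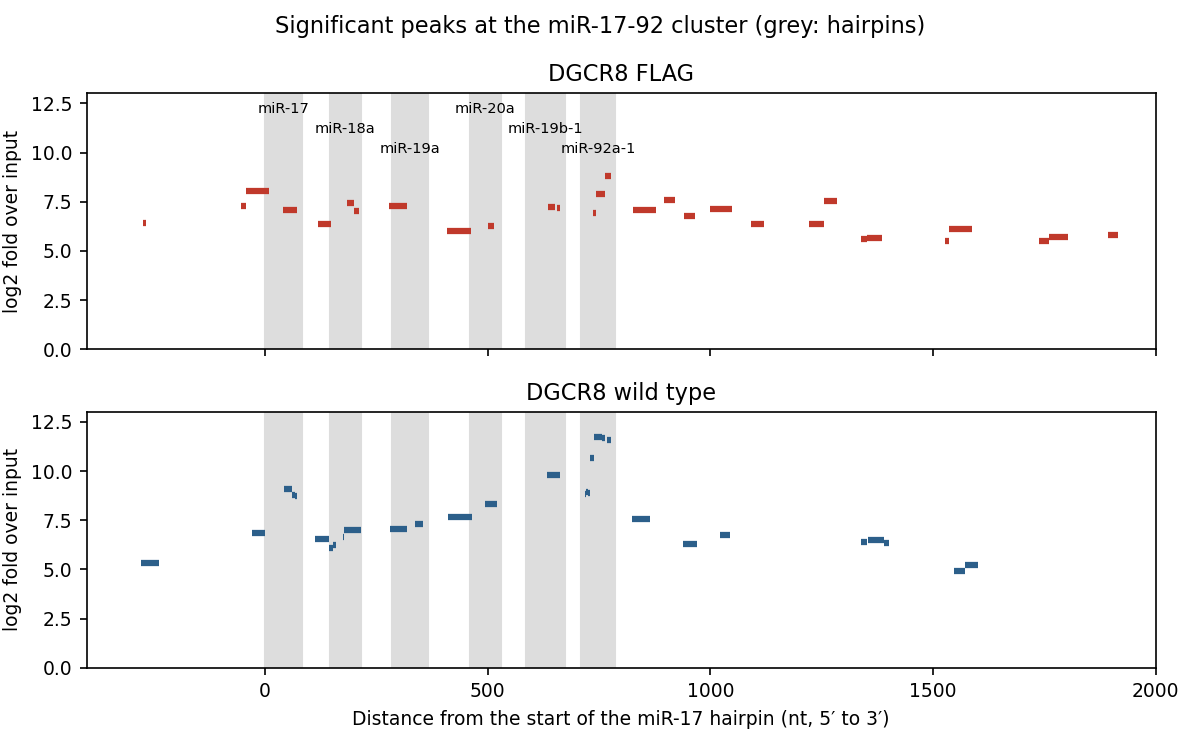
Significant peaks at the miR-17-92 cluster in DGCR8 FLAG (upper panel) and DGCR8 wild type (lower panel), by distance from the start of the miR-17 hairpin (horizontal axis, nt) and log2 fold over input (vertical axis); grey bands are hairpins and 3 wild-type peaks further 5′ lie outside the plot. FLAG peaks on hairpins have a median of 7.13 and those after the last hairpin 6.23, whereas wild-type peaks climb to 11.74 on miR-92a-1 and have a median of 6.38 after it.

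The position of the strongest peak within a hairpin can be read against the precursors printed above, counting from their first base. In MIR92A1 the strongest FLAG peak covered bases 56 to 68, inside the 3p strand at bases 48 to 69, and the strongest wild-type peak bases 30 to 49, from the end of the 5p strand across the loop. In MIR19B1 the FLAG peak covered bases 50 to 65 and the wild-type peak bases 47 to 76, both over the 3p strand at bases 54 to 76. In MIR17 the strongest FLAG peak began 42 bases before the first base of the precursor and ended at its base 10, and the strongest wild-type peak covered bases 43 to 62, reaching into the 3p strand at bases 51 to 72. In MIR106B the FLAG peak covered bases 18 to 78 and the wild-type peak bases 36 to 72. The strongest peaks of the 2 libraries overlapped in MIR19B1 and MIR106B and did not overlap in MIR92A1 and MIR17. In MIR92A1 a wild-type peak of 11.57, 0.17 log2 units below the strongest, did overlap the strongest FLAG peak, so the positions there were nearly tied in wild type.

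Within 100 nt of the hairpin centre, both libraries covered hairpins in the same asymmetric way. Around the 23 hairpins enriched in both, coverage by significant peaks had 1 maximum before the hairpin centre and 1 just after it. These hairpins were chosen because a significant peak of each library touched them. High coverage over the hairpin is therefore in part fixed by that choice. The first lay 45 to 47 nt before the centre in FLAG, where 16 of 23 hairpins were covered, and 45 to 46 nt before it in wild type, with 17 of 23. The second lay 9 to 18 nt after the centre in FLAG, with 18 of 23 hairpins, and 23 to 25 nt after it in wild type, with 22 of 23. Between 40 and 69 nt after the centre 0 of 23 hairpins were covered in FLAG, and the same held between 41 and 50 nt in wild type. Averaged over 40 to 100 nt before the centre, 48.3% of hairpins were covered in FLAG and 52.0% in wild type. Over the mirrored window after the centre, 11.4% were covered in FLAG and 12.5% in wild type. From 100 to 500 nt the order was the other way. There FLAG covered 14.9% before the centre and 19.5% after it, and wild type 20.4% before and 22.4% after. Within 30 nt of the centre the averages were 43.6% in FLAG and 62.5% in wild type. Without the miR-17-92 cluster, 17 hairpins gave 51.4% in FLAG and 58.1% in wild type before the centre and 9.26% in FLAG and 8.97% in wild type after it.

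**Figure D5:**
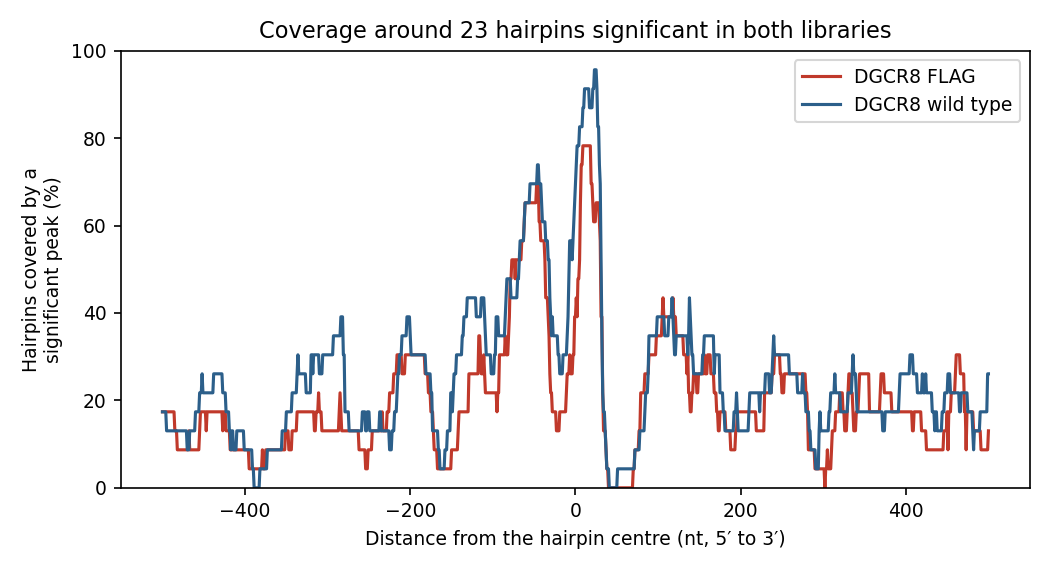
Share of the 23 listed hairpins enriched in both libraries that a significant peak covers (vertical axis, %), by distance from the hairpin centre in the direction of transcription (horizontal axis, nt), in DGCR8 FLAG (red) and DGCR8 wild type (blue). Both lines have a maximum before the centre (69.6% in FLAG, 73.9% in wild type), a second one just after it (78.3% in FLAG, 95.7% in wild type), and then fall to 0%.

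Peaks lay on 3p strands more often than on 5p strands in these counts. Significant peaks lay on 18 of 55 3p strands in FLAG and 35 in wild type, and on 9 of 53 5p strands in FLAG and 15 in wild type. In 13 hairpins with wild-type peaks on both arms, the 3p arm had the stronger peak in 7, the 5p arm in 0, and 1 peak or equal folds served both in 6. In 8 hairpins with FLAG peaks on both arms, the 3p arm was the stronger in 1, the 5p arm in 2 and neither in 5.

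The messenger RNA of DGCR8 itself was enriched in both libraries. FLAG had 12 called peaks in the transcript, of which 10 were significant, with log2 folds of 3.10 to 5.45 and a median of 3.98. Wild type had 25 called peaks, all 25 significant, with log2 folds of 3.92 to 7.21 and a median of 5.80. All 10 FLAG peaks overlapped a significant wild-type peak, and 16 of the 25 wild-type peaks overlapped a significant FLAG peak. In FLAG the peaks lay from chr22:20067872 to 20074466 and in wild type from chr22:20067857 to 20074454, on the + strand, the 5′ part of the gene. The strongest FLAG peak, at chr22:20073984-20074055, directly followed the strongest wild-type peak, at chr22:20073971-20073983. Signal in this transcript was not confined to DGCR8 libraries: 12 of the 23 other libraries had a significant peak in it. RBFOX2 wild type had 21, up to a log2 fold of 5.94, and RBFOX2 V5 had 11, up to 5.39. The others of the 12 had at most 2 each, up to a log2 fold of 4.50.

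Other RNAs of the pathway had 0 significant peaks in either library. DROSHA had 1 called peak in each library, with a log2 fold of 2.68 in FLAG and 1.06 in wild type. DICER1 had 8 called peaks in FLAG and 12 in wild type. Its strongest reached a log2 fold of 3.26 in FLAG and 3.91 in wild type, past the fold threshold, and missed the one for −log10 p. XPO5 had 1 called peak in FLAG, at 2.26, and 7 in wild type, up to 1.33. The abundant nuclear RNA MALAT1 had 52 called peaks in FLAG and 34 in wild type, with a strongest log2 fold of 1.97 in FLAG and 0.91 in wild type and 0 significant. NEAT1, the scaffold RNA of paraspeckles, had 0 significant of 56 called peaks in FLAG and 1 of 72 in wild type, at 3.03. The small RNAs RN7SK, VTRNA1-1 and VTRNA1-2 had 0 significant peaks in either library, and their strongest log2 folds ranged from −2.32 to −0.94 in FLAG and from −1.85 to 0.18 in wild type.

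Loci significant in FLAG only were mostly weak, and some lay at sites of the tag-only libraries, which are labelled FLAG-only or V5-only with a gel range and no protein. Their median strongest log2 fold was 3.48, and 44 of 188 reached a −log10 p of 5. A significant peak of at least 1 of the 7 FLAG-only libraries lay on 19.1% of FLAG-only loci (14.2% to 25.4%), on 8.08% of shared loci (4.15% to 15.1%) and on 2.97% of wild-type-only loci (1.97% to 4.45%). The first interval overlaps the second and not the third. A listed hairpin lay within 500 nt of 2 of the 188, 1.06%, against 24 of 99 shared loci, 24.2%, and 20 of 741 wild-type loci, 2.70%. With the 31 hairpins added after loci had been seen, the counts were 2 of 188, 48 of 99 and 28 of 741. Those hairpins were picked at loci already seen, so these last counts do not compare the classes fairly. By single peaks, 51 of 457 FLAG peaks, 11.2%, and 35 of 1375 wild-type peaks, 2.55%, overlapped a FLAG-only peak. The FLAG peaks shared with wild type did so in 4.74% of 211 cases and the unshared ones in 16.7% of 246. The V5-only libraries overlapped 7.88% of FLAG peaks and 3.64% of wild-type peaks. Without peaks at tag-only sites, 49.6% of 401 FLAG peaks and 18.6% of 1309 wild-type peaks were shared between the libraries.

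The 6 FLAG-only loci of highest fold illustrate both kinds. The locus at chrX:117415458-117415478 on the + strand had a log2 fold of 5.92 and was significant in 5 FLAG-only libraries, which had folds there of up to 5.73. The locus at chr15:96826149-96826167 on the − strand had 5.26 in FLAG, a called wild-type peak of 1.53, and significant peaks in 14 other libraries. The locus at chr6:10887837-10887859 on the + strand had 5.51 in FLAG, 1.41 in wild type, and a significant peak in 2 libraries of each tag. These 3 sites were not confined to tagged DGCR8.

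The remaining 3 were significant in none of the 14 tag-only libraries. The locus at chr11:32165337-32165357 on the − strand had a log2 fold of 6.48 in FLAG and a called wild-type peak of 1.65, and was also significant in 3 other libraries, FMR1 FLAG and FMR1 wild type among them. The locus at chr13:74014626-74014646 on the − strand had 6.13 in FLAG and no called wild-type peak. It was significant in FMR1 FLAG, with 5.02, and 3 FLAG-only libraries had called peaks there of 2.63, 2.83 and 3.46 that were not significant. The locus at chr17:57228889-57228917 on the − strand had 5.38 in FLAG, no called wild-type peak and no peak in the FLAG-only or FMR1 FLAG libraries. It lay 307 nt from the hairpin of MIR301A, on which FLAG had a called peak of 4.26 below the −log10 p threshold and wild type a significant one of 4.91. Of the 6, it was the only one significant in 0 of the other 23 libraries.

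Loci significant in wild type only were more numerous and included further hairpins. The places of MIR1307, MIR339 and MIR330, named below, were added after the loci had been seen. Of the 741, 109 had a called FLAG peak of any strength, and 320 reached a −log10 p of 5. The strongest, with a log2 fold of 7.35, lay at chr10:105154057-105154118 on the − strand, at MIR1307. The next, with 7.21, spanned MIRLET7B at chr22:46509457-46509767 on the + strand. Its 3 peaks lay beside the hairpin and none inside it. After it came chr7:1062594-1062627 on the − strand, at MIR339, with 7.05. A locus at chr22:46508059-46508125 on the + strand, with 6.88, lay 504 nt from the hairpin MIRLET7A3 of the same polycistron as MIRLET7B.

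The other 2 were at chr12:54385573-54385604 on the + strand, MIR196A2, with 6.82, and at chr19:46142265-46142404 on the − strand, MIR330, with 6.68. FLAG had no called peak at 5 of these 6 loci. At MIR196A2 it had a peak with a log2 fold of 4.26 that missed the threshold for −log10 p. None of the 6 was significant in any of the other 23 libraries, whereas 36.7% of FLAG-only loci (30.1% to 43.8%), 23.2% of shared loci (16.0% to 32.5%) and 9.18% of all wild-type-only loci (7.30% to 11.5%) were.

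At 19 shared loci FLAG was the stronger library, and the 2 with the widest gap were tag-only sites. The locus at chr6:31958261-31958280 on the + strand had a log2 fold of 7.03 in FLAG and 3.91 in wild type and was significant in 6 of the 7 FLAG-only and 4 of the 7 V5-only libraries. The locus at chr1:237766450-237766506 on the + strand had 6.13 in FLAG against 3.91 in wild type, and all 14 tag-only libraries were significant there. Of the remaining 17, 4 lay within 500 nt of a placed hairpin and 0 touched one. Near MIR21, the locus at chr17:57918560-57918625 on the + strand had 5.26 in FLAG against 4.65 in wild type. Near MIR186 the locus at chr1:71532965-71533120 on the − strand had 5.13 in FLAG against 3.51 in wild type. Across the 99 shared loci FLAG had more significant peaks than wild type at 7, fewer at 55 and the same number at 37.

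Overlap with the other proteins of the series was smaller. The 3 HNRNPC libraries overlapped 0 significant FLAG peaks and at most 1 wild-type peak each. The libraries of LIN28, which binds let-7 precursors, overlapped 7 FLAG peaks, 1.53%, and 11 wild-type peaks, 0.80%, with the LIN28 antibody. With the V5 tag on LIN28 they overlapped 21 FLAG peaks, 4.60%, and 14 wild-type peaks, 1.02%. The single library with the largest overlap was RBFOX2 wild type, a splicing regulator, on 46 FLAG peaks, 10.1%, and 41 wild-type peaks, 2.98%. The overlap between the 2 DGCR8 lists, 46.2% of FLAG and 18.9% of wild-type peaks, was higher than that of either with any other library of the series.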

How the data were processed

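Each library had 1 deposited peak list without a header, made by the authors on its own reads, not pooled. Its columns held a position, a strand, a −log10 p (0 to a cap of 400) and a log2 fold over the size-matched input. The authors computed both the deposited −log10 p and the deposited log2 fold of a peak from the library and its input. Per the submitters' processing notes the build is hg19 and cutadapt, STAR, GATK, Picard and SAMtools were used. Their versions and the peak caller are not given in the sources used here. A −log10 p of 15.7 was a further ceiling that 42 significant FLAG and 264 significant wild-type peaks carried.

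Significant peaks (−log10 p and log2 fold of at least 3) were compared with Python 3.11.15, pandas 2.3.3, numpy 2.4.6 and scipy 1.17.1 by same-strand overlap of at least 1 nt. Loci joined significant peaks within 200 nt. The overlap code was tested on simulated data. Shares carry 95% Wilson intervals for counting error over peaks, which are not independent. Coordinates are 1-based.

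Places of hairpins and genes in hg19 were written from general knowledge, not read from a file, because the annotation at hand was of GRCh38. No coordinates were converted. A hairpin was used where its length, chromosome and strand equalled its RefSeq (GRCh38.p14) entry, which 58 of 66 listed ones met. A further 31 were added after loci had been seen and enter no count of listed hairpins. Of 29 neighbouring pairs within 10000 nt, 28 had the RefSeq spacing; miR-221 and miR-222 did not. Isolated hairpins are checked by length alone, so positions within them may be off. Genes were used where their length was within 5% of RefSeq.

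Named loci were the 10 shared ones with the highest mean of strongest folds, and the 6 of each other class with the highest fold at a −log10 p of at least 5. Members and lists were chosen with earlier results of these data known. HNRNPH1, MIR17HG, the added hairpins, the loci where FLAG was higher and the examples among hairpins were chosen after their values were seen. Of the fixed list, snoRNA host genes, histone genes, MIR1248 and VTRNA1-3 were not analysed here. The alternatives tried were other thresholds, overlap rules, joining distances and hairpin margins, lists of equal length, and lists without tag-only sites or without the miR-17-92 locus.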

Additional observations from a re-analysis of the deposited data

Results flagged for a closer look

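RBFOX2 libraries enter no comparison of the 2 DGCR8 states. Both held signal in the DGCR8 transcript, and RBFOX2 wild type at the miR-17-92 locus, above the level in the tag-only libraries. RBFOX2 wild type had 21 significant peaks in the DGCR8 transcript and RBFOX2 V5 had 11, whereas 7 of the 14 tag-only libraries had any and none had more than 2. Of the 21 RBFOX2 wild-type peaks, 6 lay on a significant DGCR8 FLAG peak and 6 on a significant DGCR8 wild-type peak. At the miR-17-92 locus RBFOX2 wild type had 4 significant peaks, with a strongest log2 fold of 4.16, whereas RBFOX2 V5 and each tag-only library had 0.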

How the results depend on the processing

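No paired analysis was possible because each state had 1 library and no result came from a test. With a −log10 p of at least 5, significant peaks numbered 261 in FLAG and 900 in wild type. The shares on the other library were then 64.4% for FLAG and 23.9% for wild type, loci in 1 library numbered 49 for FLAG and 343 for wild type, and 13.8% of FLAG and 8.44% of wild-type peaks lay on hairpins. With a log2 fold of at least 2, significant peaks numbered 707 in FLAG and 2098 in wild type. The shares were then 39.0% for FLAG and 15.7% for wild type, loci numbered 151 shared, 346 FLAG only and 1232 wild type only, and 5.52% of FLAG and 3.77% of wild-type peaks lay on hairpins. With an overlap of 50% of both peaks, the shares were 33.9% for FLAG and 11.3% for wild type. With lists of equal length they were 37.0% for FLAG and 46.4% for wild type, the reverse of the order in full lists, so that order depends on which wild-type peaks are kept. Joining at 0 nt gave 180 shared loci. Within 100 nt of a hairpin lay 12.3% of FLAG and 8.29% of wild-type peaks. The cause of these moves, beyond the number of peaks admitted, was not tested. Counts of hairpins stayed within 1.5 times (FLAG 21 to 27, wild type 37 to 44). The median difference in fold ranged from −1.71 to −1.58, and without the miR-17-92 locus, an alternative chosen after seeing the data, it was −1.70. The named loci kept their class at both other thresholds, which their choice at a −log10 p of 5 ensures in part. Unknown read depth limits every count of sites in 1 library only.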

Other observations

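The transcript of HNRNPH1, a splicing factor that binds G-rich RNA, ran against the usual order. FLAG had 12 significant of 22 called peaks there and wild type 4 of 27, with a strongest log2 fold of 5.38 in FLAG and 4.91 in wild type. The FLAG peaks lay in chr5:179046386-179047355 on the − strand, where 2 of the 4 wild-type peaks lay as well. Of the other 23 libraries, 8 had a significant peak in the transcript, and at most 6. This gene was chosen after its values were seen.

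Mitochondrial RNA carried 4 significant FLAG peaks, 0.875% of that list, and 0 significant wild-type peaks. On the + strand, FLAG had a log2 fold of 4.18 at chrM:4305-4328, where wild type had no called peak, and 4.35 at chrM:10010-10045, where wild type had 0.65. On the − strand, FLAG had 3.56 at chrM:5832-5856, where wild type had 0.16, and 3.18 at chrM:15960-15987, where wild type had −0.50. Of these sites, 3 were significant in FLAG-only libraries: chrM:5832-5856 in 4 of them and in 9 other libraries in all, chrM:10010-10045 in 2 and chrM:15960-15987 in 1. The site at chrM:4305-4328 was significant in 1 other library, which was not a tag-only one.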
